A study of Mus musculus with 6 samples.

Results

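The comparison described here was between multipotent progenitors 2 (MPP2) sorted from Mof heterozygous and from wild-type mouse bone marrow. It rested on 6 of the 36 libraries of the series, 3 heterozygous and 3 wild-type, taken by their population and genotype. MPP2 were lineage-negative cells with Sca-1 and cKit on the surface (LSK) that were also CD34+, Flt3-, CD48+ and CD150+. Each sort held 15 cells, which were flash frozen and made into libraries by CEL-Seq2, a method that barcodes and counts the 3′ ends of polyadenylated RNA. The heterozygous mice are given as genotype Mof -/+ and the controls as wild type; no source used here gives the construction of the allele, or the strain or age of the animals. The other 30 libraries, from stem cells (HSC), the progenitors MPP3 and MPP4, and the later myeloid (CMP) and megakaryocyte-erythroid (MEP) progenitors of both genotypes, entered the shared estimate of the spread and the comparison between populations. The MPP libraries of each genotype were sequenced as 1 pool, so pool and genotype cannot be told apart. No label ties the 3 libraries of a genotype to different animals; the p-values therefore rest on the spread between libraries, which may be technical.

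Mof, whose gene symbol is Kat8, is the acetyltransferase that modifies lysine 16 of histone H4. It works in the MSL complex, which acts in gene bodies, and in the NSL complex, which sits at promoters of housekeeping genes. MPP2 are short-lived progenitors downstream of stem cells, known for their output of megakaryocytes and red cells. Their megakaryocyte program includes platelet glycoproteins, thrombin receptors and the transcription factors Gata2 and Fli1.

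The heterozygous libraries were deeper. Wild-type libraries 1 to 3 held 10331, 12339 and 11295 gene counts, and heterozygous libraries 1 to 3 held 39738, 19221 and 41452. The means were 11322 ± 1004 and 33470 ± 12370 (SD, n = 3). Over all 36 libraries the totals ran from 1577 to 123765. One count was therefore worth 81.0 to 96.8 CPM (counts scaled to the same library total) in the wild type and 24.1 to 52.0 in the heterozygote. Gene counts per count of added spike-in RNA were 16.3, 16.2 and 7.09 in wild-type libraries 1 to 3. They were 8.73, 6.41 and 43.0 in heterozygous libraries 1 to 3, so this ratio did not follow the depth. The cause of the difference in depth was not tested. With 15 cells per sort, fewer cells of a type and less RNA per cell cannot be told apart.

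The labelled cell type was checked against its markers before the genotypes were compared. Slamf1, which encodes the CD150 used to tell MPP2 from MPP3, had 0 counts in all 6 libraries, which allows up to 88.3 CPM over the wild-type and 29.9 over the heterozygous libraries. Ly6a, the Sca-1 gene, had 1 count in wild-type library 1 and 1 in heterozygous library 2. Kit, the stem cell factor receptor, had 1, 3 and 0 counts in the wild type and 15, 6 and 16 in the heterozygote, and its CPM groups did not overlap (113 ± 122 and 359 ± 40.4, SD, n = 3). The stem cell antigen Cd34 had 2, 0 and 2 counts against 1, 1 and 4, and Cd48 had 0, 1 and 0 against 2, 4 and 4. The sort genes were thus near the limit of detection, and the labels were not tested by them beyond that. Xist had 0 counts and the Y-linked Ddx3y had at least 1 count in each of the 6 libraries.

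Lists named for other cell types differed between the groups. The list of mature B cell markers summed to 5711, 7942 and 10181 CPM in the wild-type libraries and to 1812, 1561 and 796 in the heterozygous ones, a difference without overlap. It holds Vpreb3, of B cell precursors and immature B cells, and summed to 5686 CPM in wild-type MPP4. Whether mature B cells or the sorted progenitors carried this RNA was not tested. Mature neutrophil markers stood at 18875 CPM in wild-type library 1, led by S100a9 (59 counts), S100a8 (50), Camp (39) and Ngp (31), and at 266 to 755 in the other 5 libraries. The adult beta-globin transcript Beta-s made 2.70% and 4.47% of counts in wild-type libraries 1 and 2, 0.0354% in wild-type library 3 and 0.516% to 0.791% in the heterozygote. Heterozygous library 2 also stood apart from its group: Itga2b and Pf4, defining megakaryocyte genes with 12 and 9 counts in library 1 and 17 and 7 in library 3, had 0 counts there. The part of such cells in the results below was not tested. Where a value without neutrophil markers, globins and Rn45s is given, only those counts left the library totals. Other transcripts of those cells, and B cell markers, stayed in.

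**Figure D1:**
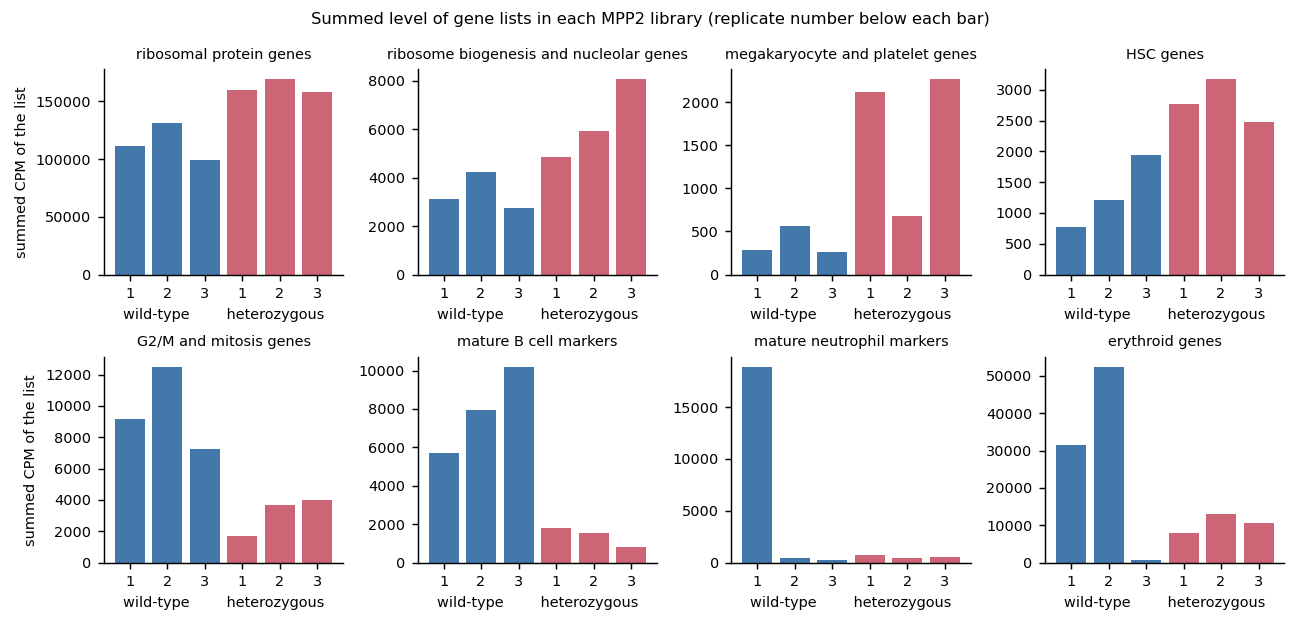
Summed level of 8 gene lists in each of the 6 MPP2 libraries (bars, CPM on the y axis; blue, wild-type libraries 1 to 3; red, heterozygous libraries 1 to 3). Ribosomal protein, ribosome biogenesis, megakaryocyte and HSC lists were higher in each heterozygous library than in each wild-type one, G2/M and B cell lists were lower, the neutrophil list stood out in wild-type library 1, and erythroid genes in wild-type libraries 1 and 2.

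Kat8 itself (chromosome 7, 127912516 to 127925837, GRCm38) could not be measured at this depth. It had 0 counts in the 3 wild-type libraries and in heterozygous libraries 1 and 2, and 1 count in heterozygous library 3. Pooled over libraries this was 0 CPM (exact 95% Poisson interval 0 to 109) in the wild type and 9.96 CPM (0.252 to 55.5) in the heterozygote. A single count in 1 of 6 libraries permits no permutation test. By limma, the difference was 0.19 ± 0.52 (SE) on the log2(value + 1) scale, with a 95% interval of -0.88 to 1.25. A halving of the transcript was not detectable at these counts, and the genotype labels were not checked by this gene. Its partners were as sparse: Msl1, the scaffold of the MSL complex, had 3, 2 and 1 counts against 4, 4 and 7, and Kansl1, the scaffold of the NSL complex, had 1, 1 and 0 against 10, 1 and 10. None of the 4 MSL and 8 NSL genes was called by limma or edgeR, and of the 3 that edgeR tested, 0 had an unadjusted p below 0.05.

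Between genotypes, 5 genes were called, all higher in the heterozygote: the lipid carrier Apoe, Erdr1, the pseudogene Rps15a-ps6, the thrombin receptor gene F2r and the RNA exosome gene Exosc2. The test was limma on log2(deposited value + 1) with Benjamini-Hochberg adjustment at 0.05 over 6444 genes, of which 0.0776% were called higher and 0% lower. At an unadjusted p below 0.05, limma had 376 genes higher and 125 lower. A count model, the quasi-likelihood test of edgeR with TMM scaling on whole counts recovered from the values, takes the lower wild-type depth into account and called 16 of 1633 genes higher (0.98%) and 2 lower (0.122%), including all 5 of the limma genes. The median edgeR log2 difference of all genes tested was 0.18. With RLE in place of TMM scaling this median moved to -0.22 and the split of calls turned to 11 higher (0.674%) and 14 lower (0.857%), with 13 of the 18 genes shared. The 5 that missed the threshold under RLE were F2r, Med16, Mir703, Plxnc1 and Rpl35a, with edgeR adjusted p-values of 0.0553, 0.0772, 0.0588, 0.0561 and 0.0501.

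Leaving out any 1 of the 6 left limma between 0 and 2 calls and edgeR between 0 and 5, with 0 by edgeR without wild-type library 1 and without wild-type library 2. The limma count also depended on 3 shallow libraries of other populations that share its estimate of spread: wild-type MPP3 libraries 1 and 2 (7304 and 2764 counts) and heterozygous HSC library 2 (1577 counts). Without them, limma called 76 of 6638 genes higher (1.14%) and 9 lower (0.136%), all 18 of the edgeR genes among them. Every other library left in this fit was deeper than those of wild-type MPP2, and the shared spread was not weighted by depth. The SE of Rps15, with 3, 6 and 6 wild-type counts, fell from 0.65 to 0.26. This fit may therefore understate the error in wild-type MPP2, here and wherever its calls are given below.

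**Figure D2:**
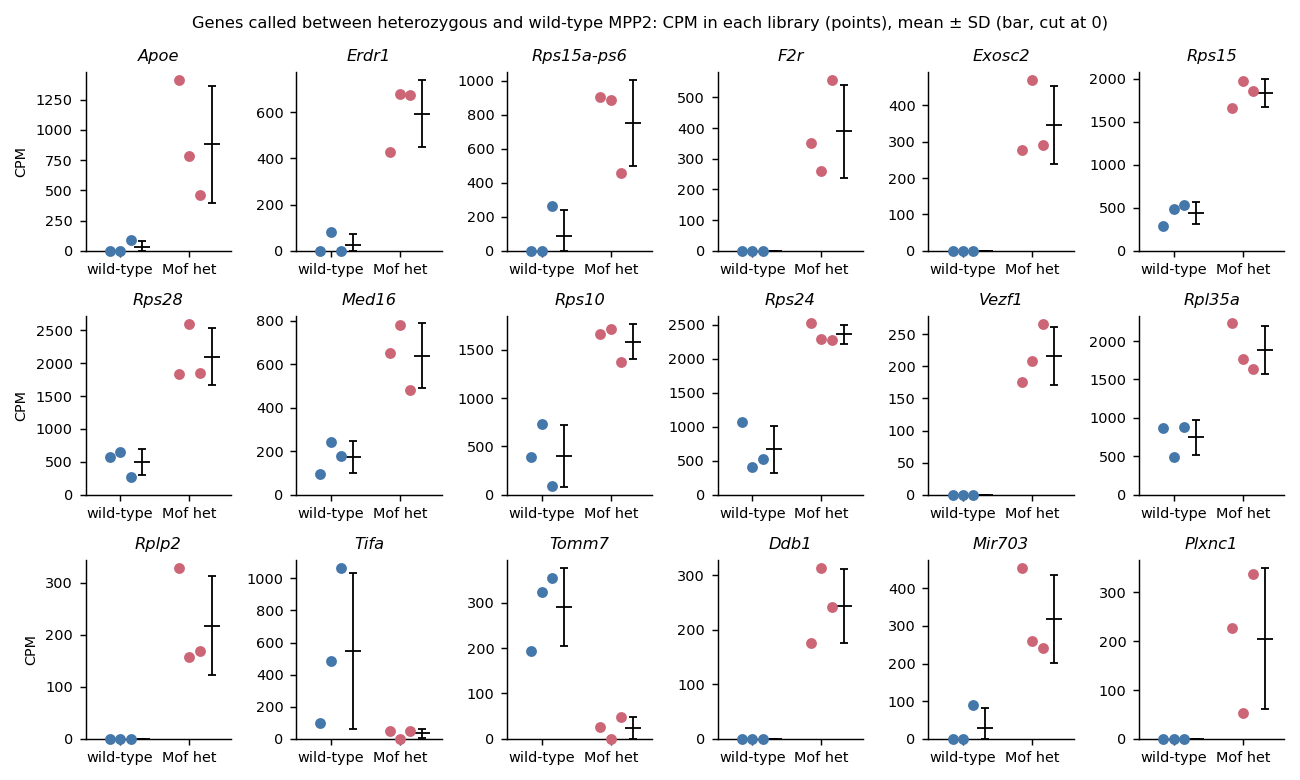
Level of the 18 genes called by edgeR in each MPP2 library (points, CPM; blue, wild type; red, heterozygous), with the mean ± SD of each group beside them. Of these genes, 16 were higher in the heterozygote, several of them from 0 counts in the wild type, and Tifa and Tomm7 were lower.

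Apoe, which encodes the lipid-carrying apolipoprotein E, showed the largest rise of the 5 by limma. It lies on chromosome 7 from 19696109 to 19699188 (GRCm38). It stood at 0, 0 and 88.5 CPM in wild-type libraries 1 to 3 and at 1409, 780 and 458 CPM in the heterozygous ones, that is, at 1 count in all against 90. All heterozygous libraries were above all wild-type ones. The ratio of pooled counts was 30.4-fold (exact 95% interval 5.33 to 1216, counting error only), and the limma difference was 3.61 ± 0.70 (SE) on the log2 scale with an adjusted p of 0.0114 (edgeR adjusted p 0.00444).

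F2r encodes PAR1, the thrombin receptor, and lies on chromosome 13 from 95601803 to 95618487. It had no count in any wild-type MPP2 library and 14, 5 and 23 counts in the heterozygous ones, or 352, 260 and 555 CPM. Against a bound of 3 counts over the wild-type group, this was 4.74-fold higher. This fold, and those against the same bound below, leave out the counting error of the heterozygote and are not lower limits. The limma difference was 3.04 ± 0.64 (SE) with an adjusted p of 0.0203 (edgeR adjusted p 0.0319 with TMM and 0.0553 with RLE scaling).

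Exosc2 encodes a cap subunit of the RNA exosome, the complex that trims and degrades RNA from the 3′ end. It lies on chromosome 2 from 31670715 to 31681349, where the antisense gene Gm13427 overlaps it. Exosc2 was likewise at 0 in the wild type, and at 277, 468 and 289 CPM in the heterozygote (11, 9 and 12 counts). This was 3.61-fold higher against the bound of 3 counts. The limma difference was 2.91 ± 0.57 (SE) with an adjusted p of 0.0114 (edgeR adjusted p 0.0030).

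Erdr1, named for its link to erythroid differentiation and placed on chromosome Y in the tables, went from 0, 1 and 0 counts to 17, 13 and 28 counts. The limma difference was 3.19 ± 0.67 (SE) with an adjusted p of 0.0203, and the ratio of pooled counts was 19.6-fold (3.38 to 788). Rps15a-ps6 is a processed pseudogene of the ribosomal protein gene Rps15a, on chromosome 11 from 6172644 to 6173036 within the gene Nudcd3. It went from 0, 0 and 3 counts to 36, 17 and 19 counts, with a limma difference of 3.08 ± 0.69 (SE) and an adjusted p of 0.0441. Reads of Rps15a and its copies are near-identical, so the assignment of these counts is uncertain. Rps15a itself had 1, 3 and 7 counts against 37, 23 and 29, and was not called by edgeR (log2 1.76, adjusted p 0.078), but was called by limma without the shallow libraries (1.79, adjusted p 0.0058).

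Of the 13 further genes called by edgeR, 6 encode ribosomal proteins. Rps15, of the small subunit, stood at 290, 486 and 531 CPM in the wild type and at 1661, 1977 and 1858 CPM in the heterozygote, with no overlap. Its pooled ratio was 4.08-fold (2.41 to 7.44) and its edgeR adjusted p was 0.0030. Rps28 rose from 498 ± 204 to 2099 ± 435 CPM, Rps10 from 402 ± 321 to 1584 ± 183, Rps24 from 667 ± 350 to 2358 ± 138 and Rpl35a, of the large subunit, from 748 ± 226 to 1883 ± 315 (SD, n = 3). Their edgeR adjusted p-values were 0.010, 0.0257, 0.0310 and 0.0310. Rplp2, of the large subunit stalk, had 0 counts in the wild type against 13, 3 and 7 (edgeR adjusted p 0.0319), and the snoRNA gene Snora52 overlaps it. Its fold was 2.59 against the bound of 3 counts.

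The other 5 genes that rose by edgeR have separate roles. Med16, a tail subunit of Mediator, went from 1, 3 and 2 counts to 26, 15 and 20 counts (edgeR adjusted p 0.0232). Vezf1, a zinc finger factor known from blood vessel formation, had 0 counts in the wild type against 7, 4 and 11, and the DNA damage-binding subunit gene Ddb1 had 0 against 7, 6 and 10. Against the bound of 3 counts these were 2.48-fold and 2.59-fold higher, with edgeR adjusted p-values of 0.0310 and 0.0319. The semaphorin receptor gene Plxnc1 had 0 counts against 9, 1 and 14 (2.71-fold against that bound, edgeR adjusted p 0.0413), so that heterozygous library 2 lay nearest to the wild type.

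The last of the 16 was assigned to Mir703, a microRNA gene on chromosome 5 from 98475556 to 98475664, minus strand, opposite to the gene Cfap299. Its mature sequence is shown because the data count the locus and not the mature microRNA, with the seed (bases 2 to 8) in capitals, from RefSeq on GRCm38.p6.
mmu-miR-703: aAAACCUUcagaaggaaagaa
The Mir703 locus had 0, 0 and 1 counts in the wild type and 18, 5 and 10 in the heterozygote, a pooled ratio of 11.2-fold (1.87 to 454; edgeR log2 3.58, adjusted p 0.0391). CEL-Seq2 primes on polyadenylated RNA, so these counts say nothing of a mature product.

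Both genes that fell by edgeR were counted in all 3 wild-type libraries and were at 0 in heterozygous library 2. Tifa, an adaptor that links innate immune receptors to TRAF6, stood at 96.8, 486 and 1062 CPM in the wild type and at 50.3, 0 and 48.2 CPM in the heterozygote, 14-fold lower in pooled counts (4.67 to 56.8; edgeR log2 -3.50, adjusted p 0.0319). The wild-type libraries spread over an order of magnitude, and Ap1ar overlaps the gene. Tomm7, a small subunit of the mitochondrial outer membrane translocase, stood at 194, 324 and 354 CPM against 25.2, 0 and 48.2, 9.85-fold lower (2.54 to 55.7; edgeR log2 -2.97, adjusted p 0.0319).

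The genes next in order of the edgeR p-value did not pass the threshold with TMM scaling, while Hmgb2, Lmo4 and Fam107b did with RLE (adjusted p 0.0150 for each). Hmgb2, a chromatin protein of dividing cells, stood at 1258, 1621 and 1417 CPM against 252, 260 and 410 (edgeR log2 -1.95, adjusted p 0.0598). The LIM protein gene Lmo4 had 4, 7 and 11 counts against 6, 1 and 1 (adjusted p 0.0566 by edgeR). Gnl3, which encodes the nucleolar GTPase nucleostemin, had 0 counts against 10, 7 and 10 (adjusted p 0.0603 by edgeR). Nlrp1a and Rpl37 were higher and Fam107b was lower in the heterozygote, with edgeR adjusted p-values of 0.0566, 0.0566 and 0.0603.

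Ribosomal protein genes held more called genes than any other list described here. Of 86 genes on the list, 82 had a count in MPP2 and 77 passed edgeR's filter on low counts. All 77 differences were positive under TMM scaling, with a median of 0.78 on the log2 scale against 0.18 for all genes, but under RLE scaling 59 were positive and 18 negative, with a median of 0.37 against -0.22. The CPM groups did not overlap, with the heterozygote higher, in 42 of the 77 (over all 1633 genes, 11.5% were higher and 9.19% lower without overlap), and they did not overlap with the heterozygote lower in 0. At an unadjusted edgeR p below 0.05 there were 35, and 6 passed the adjustment (5 under RLE). Over all 1633 genes the share below that p was smaller than in this list. It was also smaller than in the G2/M, HSC, histone and B cell lists below. It was larger than in the lists of translation factors, respiratory chain, immediate early and heat shock genes, and transcription factors of the megakaryocyte branch. Without the 3 shallow libraries of other populations, limma called 26 of the 79 genes it tested higher.

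Summed over the list, ribosomal protein transcripts stood at 111410, 130970 and 99336 CPM in wild-type libraries 1 to 3 and at 159970, 169400 and 158260 CPM in the heterozygous ones. The means were 113910 ± 15962 and 162540 ± 5999 (SD, n = 3), a 1.43-fold difference with no overlap between groups. With any 1 library left out the ratio stayed between 1.34 and 1.54, and it was 1.42 with neutrophil markers, globins and Rn45s, the ribosomal RNA precursor, taken out of the totals. After the 6 libraries were thinned to 10331 counts each, the median log2 difference by limma was 0.52 against 0 for all genes. Other scalings of the deposited values gave list medians of 0.43 to 0.84 against 0.12 to 0.35.

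The members differed in size of change. The 3 most counted lay below the list median by edgeR and were not called: Rps9 stood at 4309 ± 883 against 5067 ± 881 CPM (log2 0.48), Rpl41 at 4207 ± 1461 against 4036 ± 219 (0.17) and Rpl13 at 3334 ± 242 against 4356 ± 464 (0.63). Rpl36a (0.04), Rpl19 (0.06) and Rps3a1 (0.09) were at the low end of the edgeR differences. For these 3 and for Rpl41 the sign depended on the scaling, since their mean CPM was lower in the heterozygote. Rps28 and Rps15 (both 2.29) were near the high end.

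**Figure D3:**
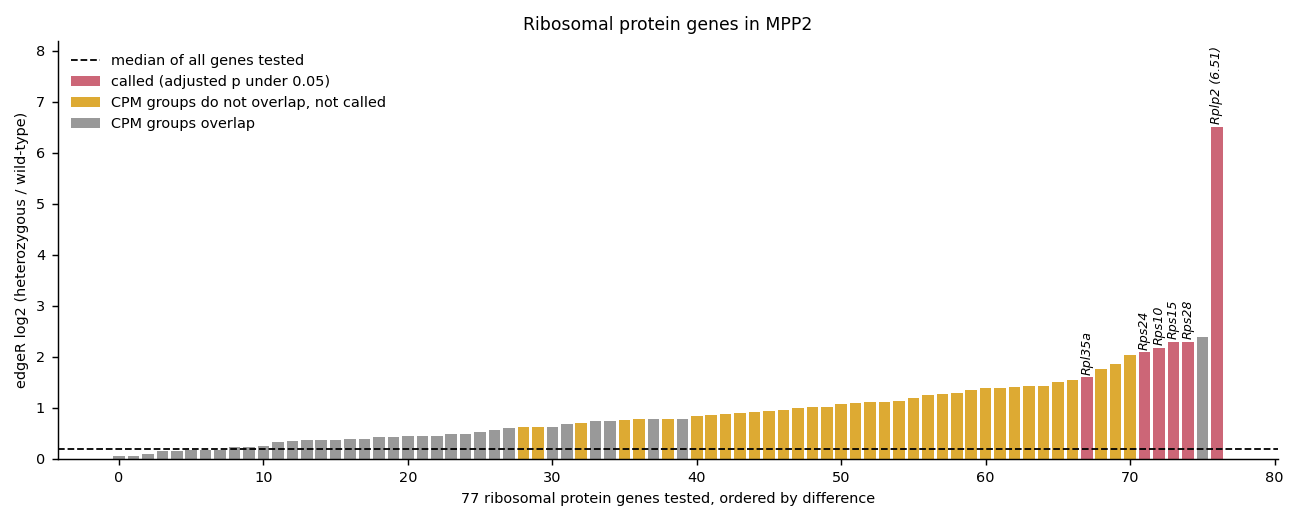
edgeR log2 difference (heterozygous over wild-type MPP2, TMM scaling, y axis) of the 77 ribosomal protein genes tested, in order of size (x axis); red, called; yellow, CPM groups without overlap but not called; grey, overlapping groups. All bars are above 0 under TMM scaling (59 of 77 under RLE) and the median of all genes (dashed) is 0.18; the bar of Rplp2 rests on a wild-type group at 0.

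Messenger RNAs of ribosomal proteins are known for a run of pyrimidines at their 5′ end, the TOP motif, through which their translation is controlled. The starts of the 6 called genes are printed to show how far they share it. Each line gives 60 bases, 40 before and 20 from the start that RefSeq annotates on GRCm38.p6, 5′ to 3′ on the gene's strand, with the longest run of C and T touching the 5 bases on either side of the start in capitals.
Rps15, chr10:80292391-80292450 (+): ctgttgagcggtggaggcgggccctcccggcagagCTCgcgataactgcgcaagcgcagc
Rps28, chr17:33824543-33824602 (-): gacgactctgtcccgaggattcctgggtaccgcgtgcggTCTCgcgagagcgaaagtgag
Rps10, chr17:27635225-27635284 (-): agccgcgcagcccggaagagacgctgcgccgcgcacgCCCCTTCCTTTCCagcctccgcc
Rps24, chr14:24490638-24490697 (+): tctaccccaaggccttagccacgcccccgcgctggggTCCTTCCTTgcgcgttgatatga
Rpl35a, chr16:33056442-33056501 (+): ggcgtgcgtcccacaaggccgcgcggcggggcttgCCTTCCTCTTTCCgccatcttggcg
Rplp2, chr7:141447611-141447670 (+): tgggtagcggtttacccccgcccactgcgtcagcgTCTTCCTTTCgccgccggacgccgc
A run of at least 7 within the 11 bases from 5 before to 5 after the start was present in Rps10, Rps24, Rpl35a and Rplp2 and absent from Rps15 and Rps28. GENCODE M21 starts Rps15 at 80292453, downstream of the 60 bases printed, so for Rps15 the absence holds for the RefSeq start only. It starts the genes Rps10, Rps24, Rpl35a and Rplp2 upstream of the RefSeq starts shown, so their runs also hold for the RefSeq starts only. Rps28 alone has the same start in both. RefSeq gives 2 starts for Rps24 and 3 for Rpl35a, of which 1 each held the run, and that start is the one shown; any gene was counted as holding a run if 1 of its starts did. Rps15 and Rps28 were the pair with the largest fold among those counted in the wild type, and a link between run and fold was not tested. Over 27025 genes with an annotated start, 5.14% held such a run on the gene's strand and 6.22% on the other strand. Among ribosomal protein genes it was 20 of 64, among them 16 of the 58 that were not called. The window and the length of the run were chosen after the values were seen, and a match describes the letters only.

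Genes that build ribosomes pointed the same way. Of 22 nucleolar and ribosome biogenesis genes, 13 were tested by edgeR, all 13 were positive under TMM and under RLE scaling, and the median was 1.03 against 0.18 for all genes (0.62 against -0.22 under RLE). By limma, which tested all 22, 19 were positive and 3 negative, with a median of 0.61 against 0.21 for all genes. The list summed to 3098, 4214 and 2745 CPM in the wild type and 4832, 5931 and 8058 CPM in the heterozygote. Exosc2 was the only one of the 13 called, and 6 of 13 had groups without overlap with the heterozygote higher (11.5% of all genes). Npm1, the nucleolar chaperone nucleophosmin, went from 877 ± 99.3 to 1524 ± 374 CPM, nucleolin (Ncl) from 1218 ± 540 to 1574 ± 352 and Nop56, of the box C/D snoRNP, from 288 ± 176 to 439 ± 172 (SD, n = 3), none of them called. Without the shallow libraries, limma called Exosc2, Gnl3 and Nop58 higher.

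Other growth genes were mixed. Of 20 translation factor genes, 13 were positive and 7 negative by edgeR under TMM scaling (9 and 11 under RLE) with a median of 0.29, and 0 were called, 1 of them having an unadjusted p below 0.05. Eef1a1, the elongation factor that brings aminoacyl-tRNA to the ribosome, stood at 4223 ± 784 CPM in the wild type and 7701 ± 517 in the heterozygote without overlap (edgeR adjusted p 0.231); limma without the shallow libraries called it (1.04 ± 0.21, SE; adjusted p 0.0039). Pabpc1 went from 3136 ± 412 to 3656 ± 683 CPM, and Tpt1 was lower in each heterozygous library by CPM (4984 ± 136 against 4385 ± 402) but not by edgeR with TMM scaling (log2 0.06). Nuclear-encoded respiratory chain genes split 23 positive to 15 negative by edgeR under TMM scaling (16 to 22 under RLE), with 0 called and 2 at an unadjusted p below 0.05, and had a summed level of 11265 ± 1492 against 11437 ± 1174 CPM.

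Megakaryocyte and platelet genes were higher in heterozygous libraries 1 and 3 above all. The list of 23 summed to 290, 567 and 266 CPM in the wild type and to 2114, 676 and 2268 CPM in the heterozygote, 4.50-fold higher on average. All 6 genes tested by edgeR were positive under TMM scaling and 5 of 6 under RLE. Their median was 2.93, or 1.55 with F2r and Pf4, at 0 in the wild type, set to their bounds. F2r was the one called, and its call was lost under RLE (edgeR adjusted p 0.0553). Plek, the platelet protein pleckstrin, had 2, 0 and 0 counts against 15, 4 and 13, and Itga2b, the platelet integrin chain CD41, had 0, 1 and 0 against 12, 0 and 17. Without heterozygous library 2 the ratio of the summed level was 5.85, and without heterozygous library 3 it was 3.73.

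Among the transcription factors of this branch, Gata2, which sustains stem cells and primes megakaryocyte and mast cell fates, had 0, 4 and 0 counts in the wild type and 23, 4 and 39 in the heterozygote. Heterozygous library 2 lay within the wild-type range, and edgeR did not call Gata2 (log2 2.60, adjusted p 0.165); without the shallow libraries limma called Gata2 (2.49 ± 0.63, SE; adjusted p 0.027). Cbfa2t3, the most counted co-repressor of the list, stood at 687 ± 338 against 607 ± 140 CPM. Of 14 factors tested, 13 were positive by edgeR (9 under RLE), with a median of 0.66, and 0 were called, 2 of them having an unadjusted p below 0.05.

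Promoters of these genes were searched for the GATA motif, AGATAA or TGATAA on either strand, in the 300 bases around RefSeq starts. It was present in 7 of 17 megakaryocyte genes with a promoter entry, in 1 of 14 edgeR-called genes (Med16) and in 21% of all 27025. F2r was not among the 7, which says only that these letters are not in its window.

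Erythroid genes were mixed. Of 13 tested by edgeR, 4 were positive and 9 negative (3 and 10 under RLE), with a median of -0.86, while Apoe was called higher. Car1, carbonic anhydrase of early erythroid progenitors, had 0, 2 and 0 counts against 5, 14 and 12 (edgeR adjusted p 0.176; called by limma without the shallow libraries, 2.16, adjusted p 0.0206), and Car2 had 6, 20 and 0 against 25, 18 and 28. Beta-s had 279, 552 and 4 counts against 205, 137 and 328. The wild-type spread in Beta-s, from 4 to 552 counts, was larger than the difference between genotypes.

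HSC genes were also higher. The list of 24 summed to 774, 1216 and 1948 CPM in the wild type and to 2768, 3174 and 2485 CPM in the heterozygote, 2.14-fold and without overlap. All 11 tested were positive by edgeR (9 under RLE), with a median of 1.41, 3 had groups without overlap (11.5% of all genes were higher without overlap), and 0 were called, 3 of them having an unadjusted p below 0.05. Txnip, an inhibitor of thioredoxin and of glucose uptake, went from 293 ± 132 to 469 ± 59.2 CPM. Ctla2a, a protease inhibitor enriched in stem cells, had 0, 3 and 2 counts against 14, 7 and 19, and Gimap1, a small immune GTPase, had 0, 2 and 0 against 14, 8 and 13. Ifitm3, an interferon-induced membrane protein also high in stem cells, had 0, 0 and 1 against 21, 9 and 3, and without the shallow libraries limma called Ifitm3 and Gimap1.

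**Figure D4:**
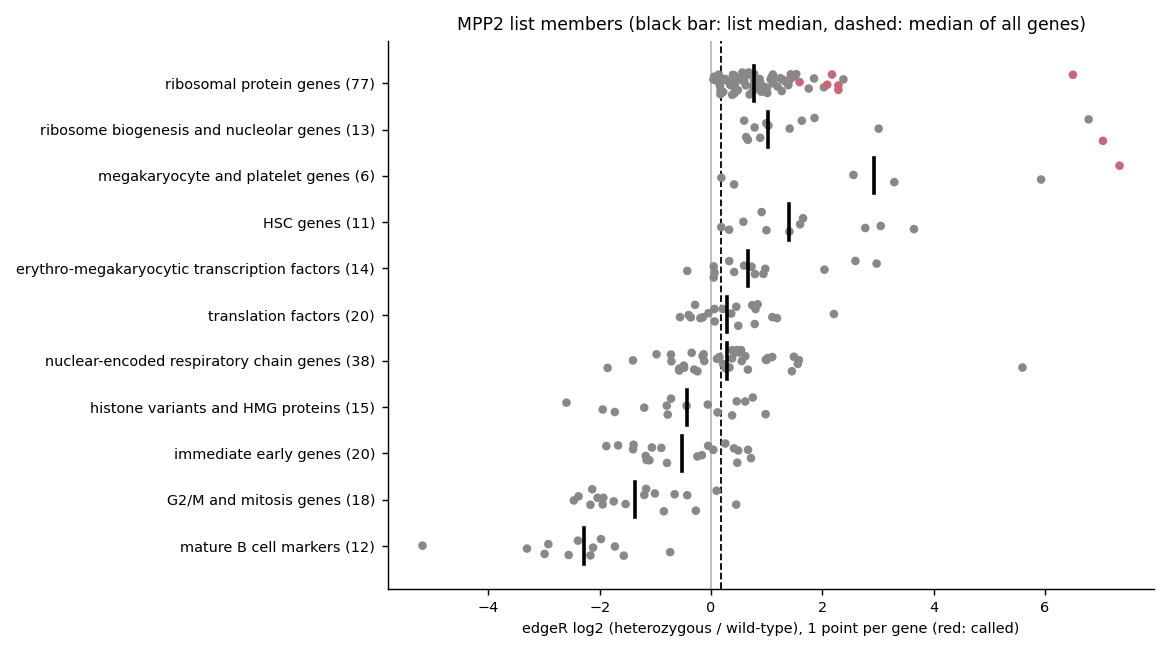
edgeR log2 difference (x axis, heterozygous over wild-type MPP2, TMM scaling) of each tested gene of 11 lists (points; red, called; the number tested in brackets), with the list median (black bar) and the median of all genes, 0.18 (dashed). Medians ran from -2.28 in mature B cell markers to 2.93 in megakaryocyte and platelet genes.

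Cell division genes had a lower summed level in the heterozygote. Of 18 G2/M and mitosis genes tested by edgeR, 16 were negative and 2 positive (17 and 1 under RLE), with a median of -1.37. Groups did not overlap, with the heterozygote lower, in 8 of 18, against 9.19% of all genes. The list summed to 9196, 12481 and 7260 CPM in the wild type and 1686, 3694 and 3980 CPM in the heterozygote, 3.09-fold lower. No member was called by edgeR with TMM scaling, where 6 had an unadjusted p below 0.05; with RLE scaling 2 were called lower, Hmgb2 (adjusted p 0.0150) and H2afz (0.0494). DNA topoisomerase Top2a stood at 1315 ± 337 against 323 ± 203 CPM, the proliferation antigen Mki67 at 1271 ± 521 against 292 ± 167, and Hmgb2 as given above, none of the 3 overlapping. Without the shallow libraries, limma called Hmgb2 (-1.90 ± 0.44, SE; adjusted p 0.0132) and the spindle gene Nusap1 (-2.37 ± 0.64, SE; adjusted p 0.0443) lower.

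Histone variant and HMG genes were mixed, with a lower sum. The list of 16 summed to 28198 ± 2804 CPM in the wild type and 16351 ± 3727 in the heterozygote, 1.72-fold lower without overlap, with 9 negative and 6 positive (11 and 4 under RLE) and 0 called by edgeR with TMM scaling, 4 having an unadjusted p below 0.05; the 2 called with RLE scaling were again Hmgb2 and H2afz. Prothymosin (Ptma), the most counted, stood at 12881 ± 1907 against 6271 ± 2589 CPM, the larger part of the difference in the sum. H3f3a, a gene of histone H3.3, stood at 3280 ± 1303 against 1697 ± 122, and Hmgb1 at 2862 ± 1330 against 1793 ± 208 with overlapping groups. H2afz, a histone H2A.Z gene that is also on the G2/M list, stood at 1090 ± 102 against 401 ± 20.8 CPM without overlap.

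Like the division genes, B cell markers had a higher sum in each wild-type library than in each heterozygous one. The order within the wild type differed: library 3 had the highest sum of B cell markers and the lowest of division genes. All 12 B cell markers tested by edgeR were negative under both scalings, with a median of -2.28; 6 had groups without overlap (9.19% of all genes were lower without overlap), 3 had an unadjusted p below 0.05 and 0 were called. Among the most counted were Vpreb3, of B cell precursors and immature B cells, with 16, 34 and 21 counts against 16, 2 and 13 and the invariant chain Cd74 with 3, 10 and 20 against 7, 7 and 3. Pax5, the factor that defines the B lineage, had 0 counts in the wild type and 2 in heterozygous library 1. Fcrla, an Fc receptor-like protein of B cells, had 5, 4 and 9 counts against 1, 0 and 0, and was called lower by limma without the shallow libraries (-3.08 ± 0.80, SE; adjusted p 0.0353). The gene of the lymphoid receptor Il7r, which the MPP2 gate does not use, stood at 259 ± 127 against 24.8 ± 25.2 CPM without overlap (edgeR adjusted p 0.255). Irf8, a factor of monocytes, dendritic cells and B cells, had 13, 9 and 30 counts against 13, 6 and 2, again lower in each heterozygous library by CPM. Ikzf1, the lymphoid factor Ikaros, had 3, 17 and 6 against 5, 3 and 11, lower in each heterozygous library and called by edgeR with RLE (adjusted p 0.0311) but not with TMM scaling (0.113), and among 10 lymphoid priming genes 7 were negative.

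The remaining lists held no gene called by limma or by edgeR with TMM scaling. Immediate early genes split 7 positive to 13 negative (5 to 15 under RLE) with a median of -0.52 and 3 at an unadjusted edgeR p below 0.05. Jund was lower in each heterozygous library by CPM, while Jun overlapped (2, 15 and 35 counts against 42, 9 and 94). Heat shock and chaperone genes split 13 to 3 under TMM and 10 to 6 under RLE scaling, with a median of 0.65 and 2 at an unadjusted edgeR p below 0.05. Markers of T and NK cells were highest in heterozygous library 1 (1107 CPM, led by Ccl5 with 24 counts), and those of mast cells and basophils likewise (352 CPM, led by Mcpt8 with 7).

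Whether the MPP2 differences stood apart from those of other populations was asked by interaction terms. Against the mean of the other 5 populations, limma called 0 of 6444 genes (0%), with 326 at an unadjusted p below 0.05, and edgeR called 0 of 1633, with 163. Against MPP4, which came from the same pools, limma called 0 (0%), with 347 at an unadjusted p below 0.05, and edgeR 0, with 128. Without the 3 shallow libraries, limma called 26 interactions against the other 5 populations (0.392%), 24 of them positive, and 0 against MPP4 (0%), with 550 at an unadjusted p below 0.05. These calls carry the limit of that fit given above, a spread shared with deeper libraries. The 26 included Apoe (3.29, adjusted p 0.0015), F2r (2.96, 0.0115), Exosc2 (2.17, 0.0464), Rps28 (2.07, 8.6e-05) and Rps15 (1.66, 0.0015), with 10 ribosomal protein genes in all, and Tomm7 below (-2.51, 0.0055).

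The levels by population show where the contrast lay. The mean of Apoe in wild-type MPP2, 29.5 ± 51.1 CPM, was below that of wild-type HSC (220 ± 134), MPP3 (155 ± 141), CMP (730 ± 124) and MEP (696 ± 72.8), and within the spread of MPP4 (37.0 ± 64.0). Heterozygous MPP2, at 883 ± 484, lay among heterozygous CMP (523 ± 225) and MEP (914 ± 153). F2r followed the same order, with wild-type means of 0 CPM in MPP2, 17.4 ± 15.1 for MPP4, 32.0 ± 55.4 for MPP3, 143 ± 131 for HSC, 262 ± 20.8 for MEP and 270 ± 103 for CMP. The heterozygous MPP2 mean of 389 ± 151 CPM was the highest of the 6 heterozygous means, and overlapped that of CMP (319 ± 201).

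Some differences recurred in other populations; in MPP3 these rest on a wild-type group of which 2 libraries are the shallow ones named above. Erdr1 was higher on average in the heterozygote of each population, and limma also called it in MPP3 (45.6 ± 79.0 against 873 ± 389 CPM, adjusted p 0.0018) and MPP4 (26.1 ± 45.2 against 642 ± 364, adjusted p 0.0011). By edgeR it was called in MPP3, MPP4, CMP and MEP (adjusted p 0.0147, 0.0014, 0.0113 and 0.0077), without overlap in each, but not in HSC (0.584). The interaction of Erdr1 in MPP2 was 0.17 without the shallow libraries (adjusted p 0.976 by limma). Exosc2 was also called by limma in MPP3 (16.0 ± 27.7 against 250 ± 34.6 CPM, adjusted p 0.0311), though not by edgeR (adjusted p 0.139), and was higher without overlap in MPP4 (78.5 ± 69.2 against 283 ± 97.2) but lower without overlap in CMP (267 ± 18.7 against 200 ± 24.4).

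Ribosomal protein transcripts summed to 124490 CPM in wild-type and 173800 in heterozygous MPP3, and to 141400 against 147610 in MPP4. In HSC the order was opposite, at 162660 against 125280, and CMP (206760 against 198530) and MEP (201380 against 208200) were close to level. Rps15 stood at 873 ± 265 against 1679 ± 58.4 CPM in MPP3 and 594 ± 198 against 1310 ± 290 in MPP4, without overlap in either, and at 2110 ± 166 against 1712 ± 125.9 in CMP, again without overlap but in the other direction. G2/M genes were lower in the heterozygote of HSC (7940 against 2498 CPM) and MPP3 (5320 against 2330) as in MPP2, and higher in MPP4 (7586 against 9458). B cell markers were lower in heterozygous HSC (3332 against 674), MPP3 (1854 against 1004), MPP4 (5686 against 4558) and MEP (2934 against 712). The HSC gene list was higher in heterozygous MPP3 (1447 against 4783), HSC (4695 against 5633), MPP4 (1220 against 1661), MEP (1001 against 1560) and CMP (2065 against 2134). Megakaryocyte genes were higher in heterozygous HSC (995 against 1490), MPP3 (404 against 842) and CMP (1686 against 1844). They were lower in MPP4 (306 against 280) and MEP (1087 against 1020). These are mean summed levels with no test of their own.

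**Figure D5:**
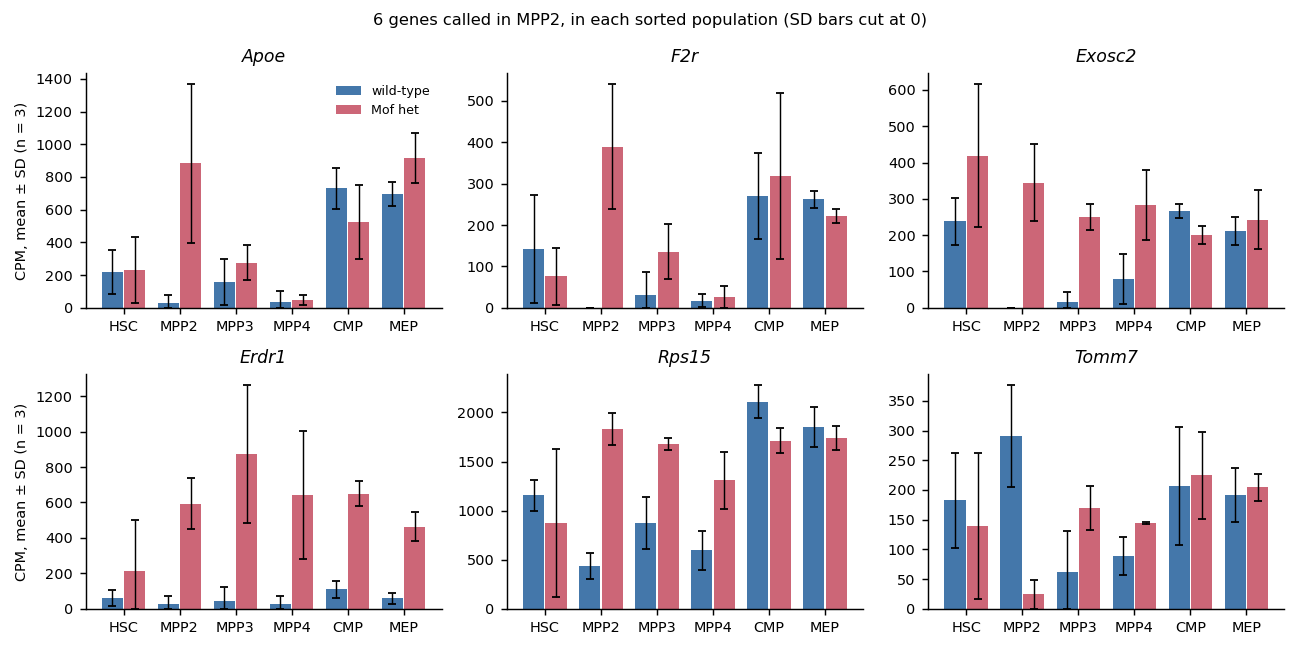
Mean level of 6 genes called in MPP2, in each of the 6 sorted populations (bars, CPM; blue, wild type; red, heterozygous; error bars, SD over 3 libraries, cut at 0). Apoe and F2r are near or at 0 in wild-type MPP2 and at CMP or MEP levels in heterozygous MPP2, Erdr1 is higher in the heterozygote of each population, and Tomm7 is lower in heterozygous MPP2 but not in MPP3 or MPP4.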

How the data were processed

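Sorted mouse bone marrow cells were sequenced by CEL-Seq2, per the labels' protocols; the submitters' processing notes name BWA and the build mm10. No source used here names the counter, its strand setting or the collapse of molecular identifiers, so overlapping genes cannot be told apart. Each gene has a deposited signal value, and these values show that the authors scaled whole counts by a size factor for each library. For MPP2 these equal median-of-ratios factors over its 6 libraries with spike-ins included, from 1261 features. Multiplication of the values by the factors gave whole counts for 100% of values (within 0.01 counts). The 92 spike-ins entered neither totals nor tests. Gene names in the table of wild-type MEP were out of step with its values and were realigned (rank correlation with wild-type CMP across genes 0.352 before and 0.902 after). The tables hold 23538 genes; identifiers separate the 55 symbols that occur more than once.

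limma 3.58.1 in R 4.3.3 was the main test. It used log2(value + 1), an intensity trend, all 36 libraries with a coefficient for each genotype of each population, and genes whose mean value reached 1. Differences on this scale understate the change of low genes. edgeR 4.0.16 (quasi-likelihood, TMM, default filter, common dispersion 0.113) was run on the recovered counts, and DESeq2 1.42.0 was a further alternative. Tests were two-sided, with Benjamini-Hochberg adjustment at 0.05, and both main fits were tested on simulated data. Exact 95% intervals of pooled-count ratios cover counting error only, and a group at 0 was bounded by 3 counts over the group. Folds against that bound take the other group at its observed value. The leave-one-out, thinned, RLE-scaled, Rn45s-free and MPP2-only runs of edgeR, and list sums without neutrophil, globin and Rn45s counts, were chosen after seeing the data.

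Named genes were the called genes with the largest change or smallest p, the next by edgeR p up to 24, list members called or among the 3 most counted, and the sort genes; some genes that this rule names are not reported here. Picked after their values were seen were Camp, Ngp, Car1, Fcrla, Ifitm3, Mki67, Nop58, Nusap1, Pf4, Rpl19, Rpl36a, Rps3a1 and Rps15a. The comparison, members and lists were chosen with earlier results of these data known, so lists are described by counts and medians and were not tested. The list of mitochondrially encoded genes matched no gene. Positions are from GENCODE M21 (GRCm38) and sequences from RefSeq (GRCm38.p6).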

Additional observations from a re-analysis of the deposited data

Results flagged for a closer look

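For 10 genes called in MPP2, every heterozygous library lay on one side of every wild-type library in MPP2 and on the opposite side in another population. They were found by looking through the called genes in the other populations. The share of all genes with such an opposite separation was not computed, so the count does not set these genes apart from others. The difference from CMP or MEP alone was not tested; the values are heterozygous minus wild-type mean CPM in the other population.

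In CMP, genes that were higher in heterozygous MPP2 had negative differences: -699.6 CPM for Rps28, -520.2 for Rps24, -397.7 for Rps15, -268.6 for Rps10, -196.68 for Rps15a-ps6, -167.32 for Mir703, -88.27 for Med16 and -66.39 for Exosc2. In MEP the same held for Rps24 (-813.8), Rps15a-ps6 (-373.14), Med16 (-240.98) and the thrombin receptor gene F2r (-40.36). In MPP4, Tomm7 was higher in the heterozygote by 55.159 CPM, while it was lower in MPP2; the interaction of Tomm7 with MPP4 was -2.72 on the log2 scale by limma, with an adjusted p of 0.791.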

How the results depend on the processing

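No paired analysis was possible because the MPP2 libraries of the 2 genotypes share no number. Against 5 limma calls, other scalings gave 37 (TMM; 33 higher, 4 lower), 44 (RLE; 25 and 19), 26 (total count; 20 and 6) and 0 (spike-ins without MEP, 235 genes at an unadjusted p below 0.05). A pseudocount of 0.1 gave 16 and of 5 gave 1; no filter gave 1 and a mean value of at least 5 gave 9. edgeR gave 18 with TMM and 25 with RLE, and DESeq2 26 (9 and 17). Thinned MPP2 libraries gave 10 by limma and 0 by edgeR (210 at an unadjusted p below 0.05). Leaving out the 3 shallow libraries gave 85, the 18 MPP libraries alone 0 (385 at an unadjusted p below 0.05), and the 6 MPP2 libraries alone 27 by limma and 32 by edgeR (17 and 15, of 193 tested). Leaving out 1 MPP2 library gave 0 to 2 by limma and 0 to 5 by edgeR.

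The interaction with the other 5 populations, 0 in both tests, became 3 with TMM scaling, 26 without the shallow libraries and 2 (lower) with edgeR under RLE; leaving out 1 library gave 0 to 1 by edgeR. That with MPP4 became 2 with DESeq2. List members called by limma (3) became 10, 9, 7 and 0 under TMM, RLE, total-count and spike-in scaling, 5 and 1 with a pseudocount of 0.1 and 5, 9 by edgeR, 15 by DESeq2, 19 in MPP2 alone and 0 to 1 with a library left out. The Kat8 difference, 0.19, was 0 in thinned libraries, 0 to 0.28 with 1 library left out, -0.70 by DESeq2, 2.22 by edgeR without a filter and 0.044 to 0.84 in the rest. Of 232 alternatives for the 18 called genes, 84 kept direction and call, 148 kept direction only and 0 reversed. The summed levels of 7 lists kept their direction in all 49 alternatives. Most of these left out 1 library. With 3 libraries a side, that cannot move a mean beyond the spread between libraries, so the size of those shifts tests nothing. With neutrophil, globin and Rn45s counts taken out of the totals, the 7 sums moved by less than that spread. The causes were not tested. Not run for the interaction with the other 5 populations were spike-in scaling, since heterozygous MEP has no spike-ins, and the MPP libraries alone, which lack 3 of those populations.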
